A study of Bos indicus with 12 samples.

Results

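SCAMP1, STXBP4 and GABARAP are 3 genes of vesicle trafficking, followed here in uterine biopsies taken on D 6 from 12 Nelore (Bos indicus) cows that were suckling and anestrous. They are the rows ENSBTAG00000007371, ENSBTAG00000016078 and ENSBTAG00000014883 of a table of 24616 Ensembl gene IDs. They were chosen because their counts differed between the treatment groups, so that difference is described below without a test. All 3 passed the filter of the study, by which a gene needs a mean of over 5 normalized counts that also exceeds its standard deviation over the 12 cows. In all, 14814 gene IDs did so. A normalized count is a raw count divided by the size factor of its library.

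The 6 ECP cows received 1 mg of estradiol cypionate (ECP), a long-acting ester of estradiol, when the intravaginal progesterone (P4) insert was removed, and the 6 CON cows received no ECP. All 12 were healthy multiparous cows that also received estradiol benzoate with the insert, cloprostenol at its removal and, per the labels, buserelin before insemination, and all formed a corpus luteum. Only cows seen in estrus were kept for ECP and only cows not seen in estrus for CON, so treatment and estrus cannot be told apart. Each library came from 1 cow. The ECP cows are numbered 1 to 6 (B0646, C317, D160, E0952, E1010 and X156), and so are the CON cows (1814, B1042, E0040, E0406, E0819 and X228). ECP 3, ECP 5, ECP 6, CON 3, CON 4 and CON 5 were later diagnosed pregnant, and the other 6 were not.

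Cells sort membrane proteins and secreted cargo by packing them into vesicles that bud from one membrane and fuse with another. Fusion is driven by SNARE proteins, among them the syntaxins of the target membrane, and other proteins hold SNAREs back or release them. SCAMP1 (secretory carrier membrane protein 1) spans the membrane of post-Golgi and recycling vesicles, where it takes part in secretion and endocytosis. STXBP4 (syntaxin binding protein 4), also called Synip, binds syntaxin 4, and in mouse fat cells it restrains the insulin-regulated delivery of glucose transporters to the cell surface. GABARAP (GABA type A receptor-associated protein) is a small ubiquitin-like protein that is coupled to lipids of the autophagosome membrane, and it also takes part in the transport of receptors. In the early luteal phase the endometrial glands secrete the histotroph that feeds the embryo before it attaches, a task that rests on vesicle traffic.

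The libraries held 8637917 to 15015055 counts in ECP (median 12470918) and 10662044 to 12765968 in CON (median 12273918). Spearman correlations between libraries were 0.957 to 0.985 over the genes tested. The read table of the study gives the mapped share of each library but names no classes. By this share the libraries were parted here into lower (ECP 1, ECP 2, ECP 5, CON 2, CON 3 and CON 4) and higher mapping ones. Results are also given within these classes. Most markers of endometrial cell types are not paired with a gene ID in the sources used here, so the tissue label was checked only with S100G, a calcium-binding protein of the uterus and gut, which had 3832 to 7929 normalized counts in ECP and 2065 to 2908 in CON. It was thus detected in every cow. Its groups did not overlap, but it comes from the study's list of genes that differ between ECP and CON. The few other markers with an ID are given further below.

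SCAMP1 had 188, 172, 184, 175, 160.1 and 163 normalized counts in ECP 1 to ECP 6, against 141, 138, 114, 91.9, 81.8 and 98.8 in CON 1 to CON 6. The 6 ECP cows lay close together, and all of them lay above the highest CON cow. ECP averaged 174 ± 11.1 and CON 111 ± 24.7 (SD, n = 6 each), a ratio of 1.56. The log2 fold change of the edgeR fit over all genes was 0.65. As the tissue is a mixture of cells, more cells that express a gene and more RNA per cell cannot be told apart, for this gene and for those below.

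STXBP4 had 91, 104, 118, 119, 131 and 151 normalized counts in ECP 1 to ECP 6, against 74.2, 83.5, 59.1, 80.7, 60.4 and 60.4 in CON 1 to CON 6. The groups again did not overlap, but the lowest ECP cow was near the highest CON cow. ECP averaged 119 ± 20.7 and CON 69.7 ± 11.1 (SD, n = 6 each), a ratio of 1.71, and the log2 fold change was 0.77.

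GABARAP went the other way. It had 5476, 5272, 5219, 5337, 4818 and 5388 normalized counts in ECP 1 to ECP 6, against 6156, 6368, 6558, 5606, 6229 and 5644 in CON 1 to CON 6. The groups did not overlap here either, with ECP below CON, and the gap between the highest ECP cow and the lowest CON cow was narrow. ECP averaged 5252 ± 230.3 and CON 6093 ± 388 (SD, n = 6 each), a ratio of 0.862, and the log2 fold change was -0.21. The difference of GABARAP was thus the smallest of the 3 on the log2 scale and rested on far more reads, 3462 to 6715 raw counts per cow, than that of SCAMP1 (84 to 227) or STXBP4 (55 to 163).

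**Figure D1:**
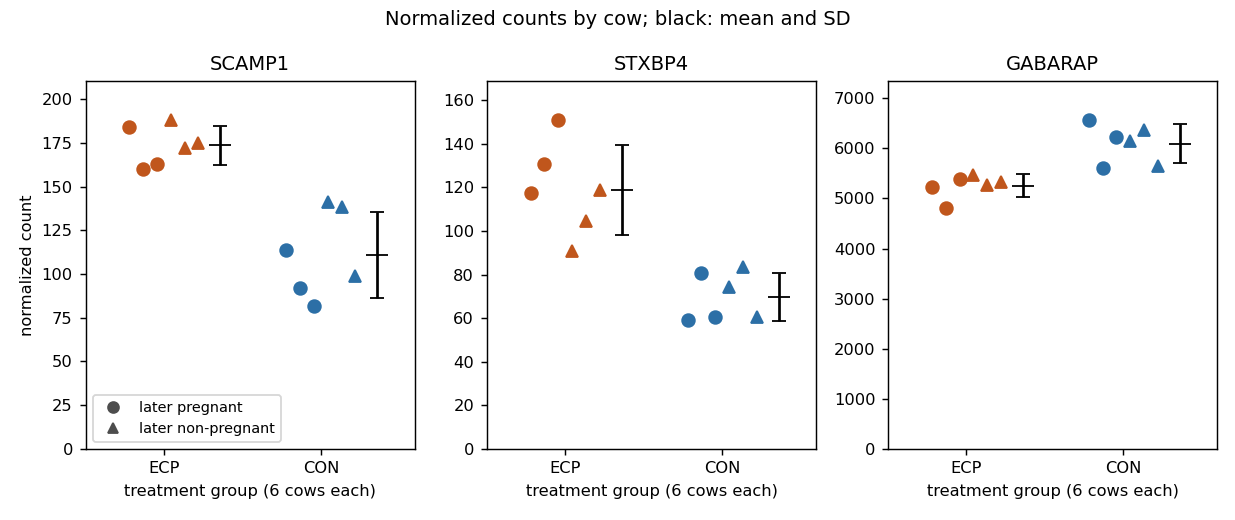
Normalized counts (vertical axes, from 0) of SCAMP1, STXBP4 and GABARAP in 6 ECP and 6 CON cows, with circles for cows later pregnant, triangles for cows later non-pregnant, and the mean and SD of each group in black. The ECP points lie above all CON points for SCAMP1 and STXBP4 and below them for GABARAP, and SCAMP1 spreads less in ECP than in CON.

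Across the table, the groups did not overlap with ECP on the higher side for 0.304% of the genes tested and with ECP on the lower side for another 0.304%, 0.608% in all. The edgeR quasi-likelihood test, with a threshold of 0.10 after Benjamini-Hochberg adjustment over all genes tested, called 0% of them between ECP and CON, and 1295 (8.74%) had an unadjusted p under 0.05. DESeq2 called 0.648% (0.385% with ECP higher, 0.263% with ECP lower) and limma voom 0%. As the 3 genes were picked by this contrast, no call is given for them. The median log2 fold change over all genes tested was 0.0020.

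Since the groups do not overlap among all 12 cows, they cannot overlap in a subset of them, and only the size of the difference can vary. For SCAMP1 the ratio of ECP to CON means was 1.76 in cows later pregnant and 1.41 in cows later non-pregnant, and for STXBP4 it was 1.99 and 1.44. For GABARAP these ratios were 0.839 and 0.885. Each of these subsets held 3 ECP and 3 CON cows, and for all 3 genes the ratio was farther from 1 among the cows later pregnant.

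Within the lower mapping libraries the ratio of ECP to CON means was 1.51 for SCAMP1, 1.46 for STXBP4 and 0.840 for GABARAP, and within the higher mapping libraries it was 1.62, 1.99 and 0.884. STXBP4 varied most between the classes. Leaving out each cow in turn gave log2 fold changes of 0.58 to 0.73 for SCAMP1, 0.69 to 0.84 for STXBP4 and -0.23 to -0.18 for GABARAP.

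**Figure D2:**
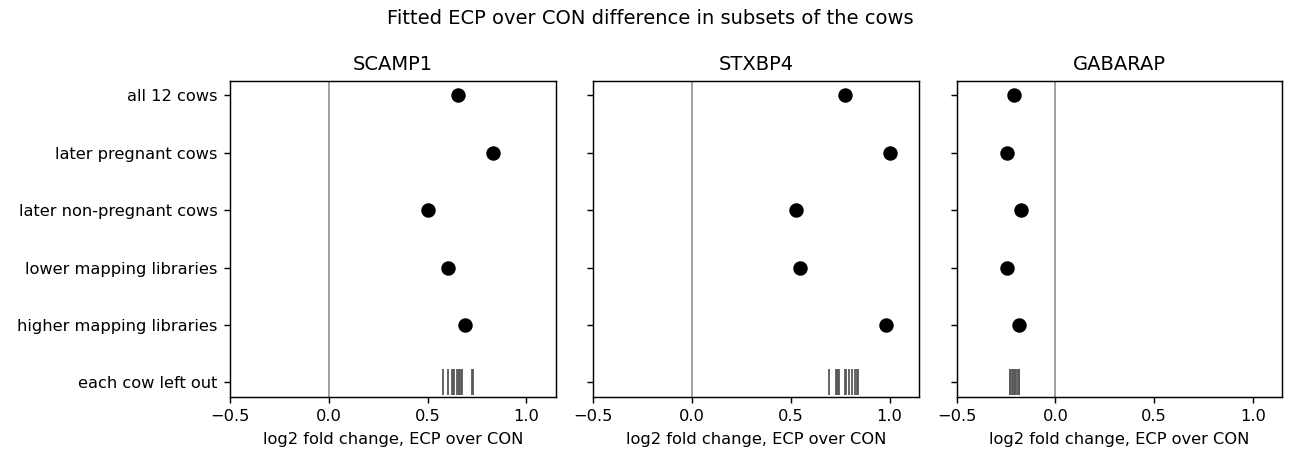
Log2 fold change of ECP over CON (horizontal axes) for each gene, fitted in all 12 cows, in subsets of 6 cows by later pregnancy or mapping class, and with each cow left out in turn (1 bar per cow left out). The values are above 0 for SCAMP1 and STXBP4 and below 0 for GABARAP in each fit, and STXBP4 moves most between subsets, at 0.53 to 1.00.

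The genes differed in how much they varied between cows of 1 group. SCAMP1 had a coefficient of variation of 6.41% in ECP and 22.2% in CON, where counting error alone would give about 7.48% and 9.49% at the mean raw counts of 179 and 111. The spread of SCAMP1 among ECP cows was thus within counting error, while the highest CON cow had 1.73 times the lowest. The difference in spread between the groups was not tested. For STXBP4 the coefficient of variation was 17.4% in ECP and 15.9% in CON, above the 9.08% and 11.9% of counting error. GABARAP varied least, by 4.39% in ECP and 6.37% in CON, with a counting error of 1.36% and 1.28%. Within groups, SCAMP1 and STXBP4 varied by 16.3% and 16.7%, near the median of 18.8% over all genes tested, while the 5.47% of GABARAP was at the 1.09 percentile. Counting error here takes each read as independent. A gene chosen by a group difference tends to vary little within groups, so these ranks are a description.

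Later pregnancy was not used to choose the genes. In the edgeR fit with treatment in the model, none of the 3 passed the test between the 6 cows later pregnant and the 6 later non-pregnant. The log2 difference was -0.23 for SCAMP1 (95% interval -0.54 to 0.07), 0.12 for STXBP4 (-0.24 to 0.48) and -0.02 for GABARAP (-0.17 to 0.13), with an adjusted p of 0.9997 each. edgeR called 0% of all genes in this comparison and 481 had an unadjusted p under 0.05 (3.25%), none of them a member, and DESeq2 and limma voom also called 0.

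Within the ECP cows, STXBP4 had 118, 131 and 151 normalized counts in the 3 cows later pregnant, against 91, 104 and 119 in the 3 later non-pregnant. The means were 133 ± 16.7 and 105 ± 14 (SD, n = 3 each), and the groups overlapped, as ECP 3 had slightly less than ECP 4. The log2 difference was 0.35 (95% interval -0.14 to 0.84, edgeR adjusted p = 0.9998). SCAMP1 and GABARAP differed by -0.07 (-0.49 to 0.35) and -0.06 (-0.28 to 0.17) on the log2 scale, and both overlapped.

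Within the CON cows, SCAMP1 had 114, 91.9 and 81.8 normalized counts in the 3 cows later pregnant, against 141, 138 and 98.8 in the 3 later non-pregnant. The means were 95.9 ± 16.5 and 126 ± 23.7 (SD, n = 3 each), and the groups overlapped. The log2 difference was -0.40 (95% interval -0.83 to 0.03, edgeR adjusted p = 0.9988). STXBP4 had 59.1, 80.7 and 60.4 in pregnant against 74.2, 83.5 and 60.4 in non-pregnant CON cows, a log2 difference of -0.13 (-0.63 to 0.37). GABARAP differed by 0.01 (-0.21 to 0.23). In CON, 2 of the 3 pregnant cows and 1 of the 3 non-pregnant cows had lower mapping libraries, while in ECP these numbers were 1 and 2.

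None of the 3 genes separated pregnant from non-pregnant cows without overlap in either treatment group. Across the table, 9.69% of the genes did so in ECP (4.73% higher and 4.96% lower in pregnant cows) and 7.83% in CON (3.94% higher and 3.89% lower). edgeR called 0% of the genes in either group, with 672 genes (4.54%) in ECP and 604 (4.08%) in CON at an unadjusted p under 0.05, while DESeq2 called 12 (0.081%) and 13 (0.0878%) and limma voom 0 in either. No member was among these. In both groups 3 cows were compared with 3, and the fit took its estimate of the spread from all 12 cows.

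The interaction of treatment and later pregnancy, which tests whether the ECP over CON difference depends on pregnancy, did not pass for any member. The pregnancy difference in ECP minus that in CON was 0.33 on the log2 scale for SCAMP1 (95% interval -0.27 to 0.93, edgeR adjusted p = 0.936), 0.48 for STXBP4 (-0.22 to 1.17, adjusted p = 0.926) and -0.07 for GABARAP (-0.38 to 0.25, adjusted p = 0.982). edgeR called 0% of all genes, with 777 at an unadjusted p under 0.05 (5.25%), DESeq2 called 13 (0.0878%) and limma voom 0.

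**Figure D3:**
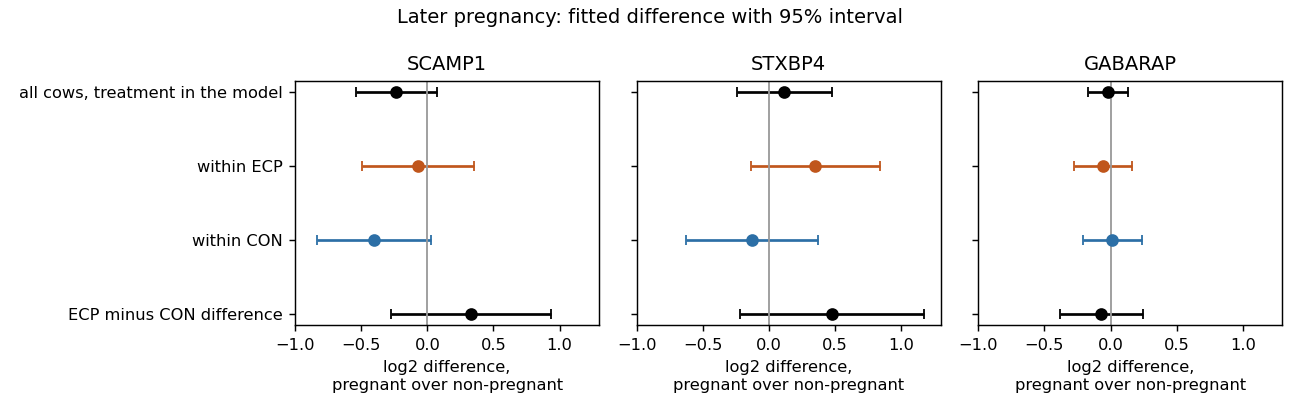
Log2 difference of pregnant over non-pregnant cows (horizontal axes) with its 95% interval for each gene, in all cows, within ECP, within CON, and the ECP difference minus the CON difference. Each of the 12 intervals includes 0, and those of GABARAP are the narrowest.

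Plasma progesterone at the biopsy was 3.05 to 4.73 ng/mL in the ECP cows and 2.82 to 3.86 ng/mL in the CON cows, from the label of each cow. With treatment in the edgeR model, the log2 slope per ng/mL was 0.12 for SCAMP1 (95% interval -0.22 to 0.45, adjusted p = 0.976), 0.03 for STXBP4 (-0.37 to 0.43, adjusted p = 0.996) and 0.03 for GABARAP (-0.12 to 0.19, adjusted p = 0.978). No member passed the test. edgeR called 0% of all genes, with 695 at an unadjusted p under 0.05 (4.69%), while DESeq2 called 11 (0.0743%) and limma voom 0. The study had selected cows of similar progesterone, which narrows the range over which a slope can be seen.

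Correlations with progesterone were computed within each group of 6 cows on log2(normalized count + 1), among 12 relations in all with those between the genes below. In ECP, Pearson's r was 0.34 for SCAMP1 (exact permutation p = 0.503), -0.27 for STXBP4 (exact p = 0.608) and -0.02 for GABARAP (exact p = 0.983), and Spearman's rho was 0.20 (exact p = 0.714), -0.26 (exact p = 0.658) and 0.03 (exact p = 1). These values moved when the cows at the ends were left out. Without ECP 1 and ECP 4, the highest and the lowest in progesterone, r was -0.03 for SCAMP1, 0.52 for STXBP4 and -0.50 for GABARAP.

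In CON, r was 0.33 for SCAMP1 (exact permutation p = 0.542), 0.54 for STXBP4 (exact p = 0.231) and 0.45 for GABARAP (exact p = 0.375), and rho was 0.09 (exact p = 0.919), 0.31 (exact p = 0.564) and 0.09 (exact p = 0.919). Without CON 5 and CON 6, the 2 cows of lowest progesterone, r was -0.71, -0.13 and -0.10. The other 4 cows spanned only 3.57 to 3.86 ng/mL, a narrow range for a relation to show. Benjamini-Hochberg adjusted values over the 12 relations were at least 0.722 for r and 0.952 for rho. The slopes within each group gave the same picture, with an edgeR adjusted p of 0.929 to 0.999, and their difference between the groups had an adjusted p of 0.920 to 0.963. For the slopes in ECP, the slopes in CON and their difference edgeR called 0% of all genes each, with 768, 822 and 917 at an unadjusted p under 0.05 (5.18%, 5.55% and 6.19%), DESeq2 called 8, 24 and 43 (0.054%, 0.162% and 0.29%), and limma voom called 0 each.

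**Figure D4:**
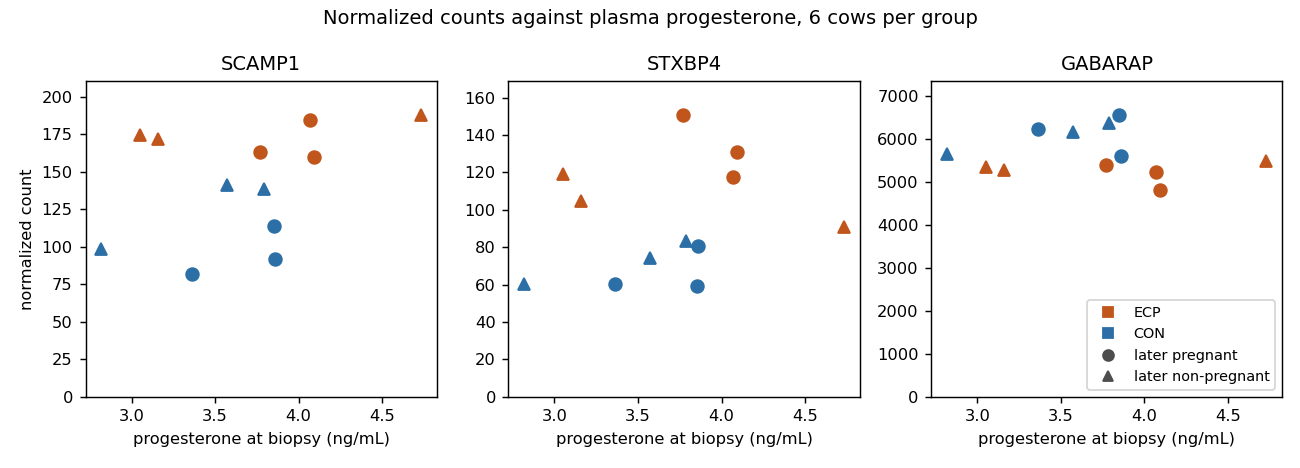
Normalized counts of each gene (vertical axes, from 0) against plasma progesterone in ng/mL (horizontal axes), with ECP cows in orange and CON cows in blue, circles for cows later pregnant and triangles for those later non-pregnant. The groups stay apart for each gene at any progesterone, which their lack of overlap among all cows fixes, and 1 ECP cow lies alone at 4.73 ng/mL.

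SCAMP1 and STXBP4, which both had higher means in ECP, did not vary together among the cows of that group. In ECP the cow with the most SCAMP1 (ECP 1) had the least STXBP4, and the cow with the most STXBP4 (ECP 6) was the second lowest in SCAMP1. Pearson's r was -0.78 (n = 6, exact permutation p = 0.0694) and rho -0.77 (exact p = 0.103), with an adjusted value of 0.722 and 0.952 over the 12 relations. Without ECP 1 and ECP 6 r was -0.47. With the mean of each mapping class subtracted r was -0.96, a value from 6 cows that was not tested. The spread of SCAMP1 among ECP cows (6.41%) was within counting error (7.48%). No pattern between cows can thus be read from an r with SCAMP1 in this group. Leaving out each cow in turn gave -0.88 to -0.61.

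In CON the same pair had an r of 0.46 (exact permutation p = 0.311) and a rho of 0.20 (exact p = 0.714), and r was 0.76 without CON 2 and CON 4. The difference between the groups was not tested. SCAMP1 and GABARAP had an r of 0.58 in ECP (exact p = 0.247; rho 0.49, exact p = 0.356) and 0.45 in CON (exact p = 0.397; rho 0.31, exact p = 0.564), so the gene that was higher and the gene that was lower in ECP had a positive r among cows of either group. Without the 2 cows farthest from the median of GABARAP r was -0.88 in ECP and 0.03 in CON, so the sign in ECP rested on ECP 1 and ECP 5. STXBP4 and GABARAP had an r of -0.35 in ECP (exact p = 0.481; rho -0.26, exact p = 0.658) and -0.16 in CON (exact p = 0.678; rho -0.26, exact p = 0.658), and 0.73 and -0.31 without the 2 cows farthest from the median. None of these relations passed after adjustment over the 12.

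**Figure D5:**
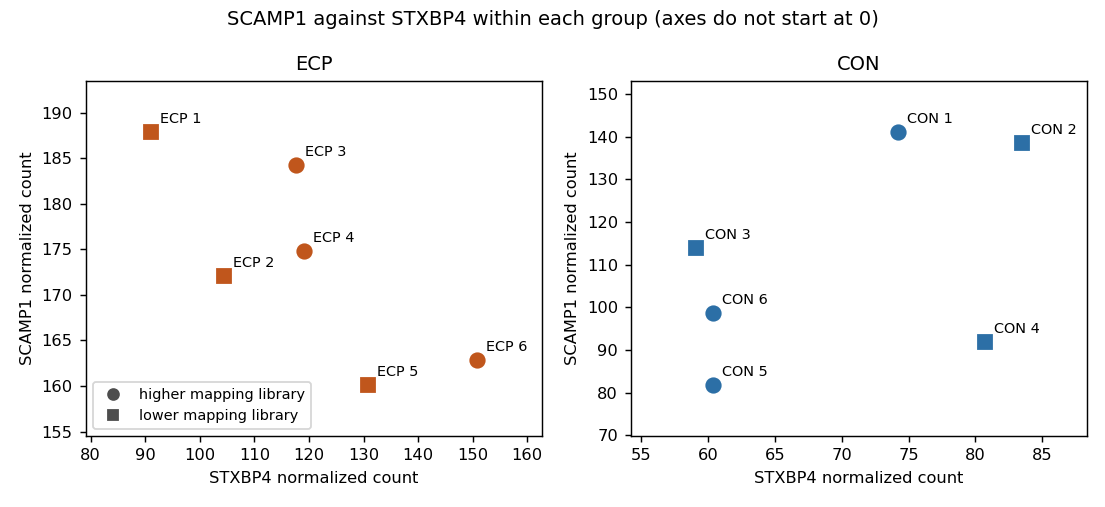
SCAMP1 against STXBP4 normalized counts, 1 point per cow, in ECP (left) and CON (right), with circles for higher and squares for lower mapping libraries. The axes do not start at 0, and the spread of SCAMP1 among the ECP cows was within counting error. The ECP points run from high SCAMP1 and low STXBP4 (ECP 1) to low SCAMP1 and high STXBP4 (ECP 6), whereas SCAMP1 and STXBP4 had a positive r in CON.

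The genes whose pattern among cows was most like that of each member were sought with the mean of each group subtracted, over 12 cows and 14814 genes. For SCAMP1 the gene ID with the highest Pearson correlation was ENSBTAG00000000820 (r = 0.89), and among those the study's list names CD244, a receptor of natural killer cells (r = 0.79), and ENSBTAG00000017473, listed under a cluster name only (r = 0.69). The correlation with CD244 was 0.85 in CON but 0.24 in ECP, where SCAMP1 hardly varied. For STXBP4 they were ENSBTAG00000034712 (r = 0.93), ARMC12 (r = 0.71) and UPK3BL (r = 0.63). For GABARAP they were ENSBTAG00000046058 (r = 0.92), NAA20, the catalytic subunit of an enzyme that acetylates the start of proteins (r = 0.76), and KIAA1456 (r = 0.65). All 12 cows enter each value through the same libraries, and 1% of genes had an r above 0.61, 0.74 and 0.67 with SCAMP1, STXBP4 and GABARAP. ARMC12, UPK3BL and KIAA1456 lay below these values, and are only the nearest among genes the study's list names.

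Other trafficking genes came from a list of 46 that was made with earlier results of these data known. How many of them have an ID is thus not a result. Of the 46, 5 are paired with a gene ID, all through the study's own list of genes that differ between ECP and CON. Their ECP over CON values are thus a description as well. STX4, the syntaxin of the plasma membrane that STXBP4 binds, had a median of 428 normalized counts (362 to 483) in ECP and 522 (464 to 596) in CON. Its groups overlapped, its log2 fold change was -0.29, and it thus lay on the other side of 0 from STXBP4. DENND5B, which activates Rab GTPases of vesicle transport, had 150 to 200.1 in ECP and 78.7 to 137 in CON, a log2 fold change of 0.67.

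HEATR5B, a partner of a clathrin adaptor of the Golgi and endosomes, had 987 to 1199 normalized counts in ECP and 683 to 941 in CON, a log2 fold change of 0.34. STON1, a relative of endocytic adaptors, had 967 to 1272 in ECP and 699 to 1092 in CON (log2 fold change 0.43), and TBC1D9, of a family that switches Rab GTPases off, had 269 to 336 in ECP and 214 to 278 in CON (0.35). DENND5B and HEATR5B did not overlap between the groups, as was the case for 0.608% of all genes, whereas STON1 and TBC1D9 did. Because these genes were picked by the same contrast, nothing is read from this. With later pregnancy, 0 of 5 passed with edgeR or DESeq2, and STON1 had the lowest unadjusted p of the 5 (log2 difference 0.23, 95% interval 0.0008 to 0.46, edgeR adjusted p = 0.9997).

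No member passed the test for mapping class. Fitted beside treatment, the log2 difference of lower over higher mapping libraries was 0.05 for SCAMP1 (95% interval -0.28 to 0.38), -0.03 for STXBP4 (-0.40 to 0.33) and 0.005 for GABARAP (-0.14 to 0.15), with an edgeR adjusted p of 0.970 to 0.994. edgeR called 0.00675% of all genes (1 gene), with 7.47% at an unadjusted p under 0.05, and DESeq2 called 0.675%, none of them a member.

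The 4 of 6 leukocyte markers with a gene ID (CD244, ALOX5, SAMSN1 and AMICA1) summed to 265 to 421 normalized counts in ECP and 394 to 535 in CON. The single epithelial marker with an ID, CEACAM1, had 3037 to 5490 in ECP and 1834 to 3003 in CON, and the single stromal marker, ASPN, had 743 to 1463 in ECP and 507 to 881 in CON. The groups overlapped for the leukocyte sum and for ASPN but not for CEACAM1 or, as given above, S100G. All of these come from the study's list of genes that differ between the groups, no endothelial marker has an ID, and the part of cell makeup in the results for SCAMP1, STXBP4 and GABARAP was not tested.

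The RefSeq gene table of another Bos indicus assembly (NIAB-ARS_B.indTharparkar_mat_pri_1.0) shows what lies around these genes, though not on the build of the counts. SCAMP1 lies between AP3B1 and ARSB, and its span overlaps that of LHFPL2. STXBP4 lies between COX11 and HLF and holds a pseudogene, LOC139177804, and GABARAP lies between PHF23 and CTDNEP1 with no gene overlapping it. No source used here says whether reads were counted by strand, so reads from the shared stretch of SCAMP1 and LHFPL2 could have been lost or counted for either gene. The table lists 4 transcripts for SCAMP1, 5 for STXBP4 and 1 for GABARAP, and counts per gene do not tell transcripts apart. GABARAP has close relatives (GABARAPL1 and GABARAPL2), and its counts are uncertain as far as reads map to these or to other copies.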

How the data were processed

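The data were RNA-seq counts of D 6 endometrium from 6 ECP and 6 CON cows. After trimming and alignment to masked UMD 3.1 the authors kept uniquely mapped reads and deposited raw counts per gene. Tools listed by the submitters in their processing notes are HTSeq 0.5.4p2, Bowtie2 2.1.0, SAMtools 0.1.18, CASAVA 1.8.2 and DESeq 1.12.1, whereas the paper names DESeq2. Genes with close copies lose counts when only unique alignments are kept.

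Groups, pregnancy status and progesterone came from the labels, and symbols from the study's gene list, as the reference table pairs no Ensembl ID. The mapping class of each library was set here from the mapped shares in the study's read table. Tests across all 14814 genes used R 4.3.3 and edgeR 4.0.16 (TMM, glmQLFit, glmQLFTest), with Benjamini-Hochberg adjustment over all genes tested and a threshold of 0.10. Later pregnancy within treatment came from a model with 4 group means, and the progesterone slopes within treatment from a model with 1 slope per group. Standard errors are the log2 difference divided by the square root of F. Correlations were tested by exact permutation in Python 3.11.15 with SciPy 1.17.1. The plots used matplotlib 3.10.9. As alternatives served DESeq2 1.42.0, limma 3.58.1 (voom), 2 other scalings, filterByExpr, no filter, a threshold of 0.05, mapping class as a covariate, and each cow left out. The tests of pregnancy in all cows, pregnancy within ECP and progesterone were checked on simulated counts, and the other comparisons were not. At a fold of 1.5 (per ng/mL for progesterone) they recovered 24, 1 and 17 of 50 changed genes. At a fold of 4 they recovered 49, 36 and 48 of 50. In each simulation 200 genes were changed at once, which makes the adjusted threshold easier to reach. These numbers can thus be too high for the data themselves, where edgeR called 0% of genes in these comparisons. Small differences would thus often be missed, most of all within a treatment group.

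The members, gene lists and named genes were chosen with earlier results of these data known. The named genes are the members, the 5 trafficking genes of the study's list, the gene ID and the 2 symbol-bearing genes most correlated with each member, and S100G. Counting error was larger for SCAMP1 and STXBP4 than for GABARAP. No protein, promoter or other sequence was used here.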

Additional observations from a re-analysis of the deposited data

Results flagged for a closer look

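HEATR5B in the ECP cows had 1 cow apart from the others. ECP 6 had 1199.3 normalized counts, while the other 5 ECP cows lay between 987 and 1066, and the gap to the next cow was 0.628 of the whole range, above Dixon's critical value for a group of 6. Of 18 groups looked at (8 genes and progesterone, in ECP and in CON), 1 had such a sample, and chance gives about 1 in 20. ECP 6 also had the most STXBP4 of the 12 cows. SCAMP1, STXBP4 and GABARAP had no such sample in either group.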

How the results depend on the processing

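The log2 fold changes of ECP over CON kept their sign, which the lack of overlap all but fixes. The log2 fold change of STXBP4 was 0.53 in the later non-pregnant cows alone. DESeq2 called more genes than edgeR, with 96 for ECP over CON. Within ECP and within CON it called 12 and 13 for pregnancy, and 13 for the interaction of treatment and pregnancy. It called 11 for progesterone, 8 and 24 for the progesterone slopes in ECP and CON, 43 for their difference and 100 for mapping class. No member was among the calls for pregnancy, progesterone, the interactions or mapping class. For ECP over CON, the contrast that chose the genes, no call of a member is given. The 1 gene of the mapping comparison became 0 at a threshold of 0.05, with limma voom, with upper quartile scaling and with filterByExpr. The cause of these differences was not tested.

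Effects near 0 changed sign. The progesterone slope of STXBP4 was -0.0180 with limma voom, the pregnancy difference of GABARAP in CON was -0.0174 with upper quartile scaling, and its slope in ECP was -0.00040 with DESeq2 and -0.00058 with DESeq2 size factors. The correlation of GABARAP with progesterone in ECP was 0.0495 on the log2 CPM scale. That of SCAMP1 with STXBP4 in ECP kept its sign and was -0.96 with mapping class means subtracted, which was not tested. SCAMP1 varied among the ECP cows within counting error, so no pattern is read from this r.

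Leaving out each cow gave 0 to 1 calls for progesterone (1 without ECP 6), for pregnancy in CON (1 without CON 5) and for the interaction with pregnancy (1 without CON 3 and 1 without CON 5), and 0 to 3 for mapping class. For GABARAP the log2 slope was -0.0193 to 0.18 in CON and -0.0651 to 0.0267 in ECP, their difference -0.18 to 0.0259, the pregnancy difference -0.0492 to 0.0011 in all cows and -0.0383 to 0.0673 in CON, and the mapping difference -0.0176 to 0.0303. For SCAMP1 the slope in ECP was -0.0175 to 0.0944 and the mapping difference -0.0306 to 0.15. For STXBP4 the slope was -0.0422 to 0.26 in all cows and -0.23 to 0.21 in ECP, and the mapping difference -0.0941 to 0.0534. With progesterone, r was -0.18 to 0.61 for SCAMP1, -0.53 to 0.49 for STXBP4 and -0.57 to 0.49 for GABARAP in ECP, and 0.21 to 0.56, 0.40 to 0.88 and -0.12 to 0.96 in CON. Between genes, r was -0.88 to -0.61 (SCAMP1 and STXBP4), 0.0462 to 0.85 (SCAMP1 and GABARAP) and -0.81 to -0.0312 (STXBP4 and GABARAP) in ECP, and 0.22 to 0.79, 0.30 to 0.73 and -0.52 to 0.21 in CON. Depth bore most on SCAMP1 and STXBP4, with a counting error of 7.48% to 11.9%, against 1.28% to 1.36% for GABARAP.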
